A study of Mus musculus with 6 samples.

Results

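The genes described here encode the slit diaphragm and foot processes of the podocyte, the epithelial cell that covers the glomerular capillaries of the kidney. They are Nphs1, Kirrel, Cd2ap, Magi2, Podxl, Ptpro, Synpo and Wt1. They were taken by name from the array annotation, using rows (exon probe sets) that carry exactly 1 gene symbol. Of the 8 genes, 7 had such rows, 116 rows in all of 241576 on the array, and they are 7 of 20416 genes summarised. Magi2, which encodes a scaffold protein that binds nephrin, had no row under its symbol and was not analysed here.

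Kidney RNA of mice with induced renal fibrosis was measured on 6 arrays. The group labelled B6-TGFbeta (WT) held replicates 1 to 3, and the group labelled CBAxB6-TGFbeta (KO) held replicates 4 to 6. The group names point to a C57BL/6 (B6) background and to a background of CBA and B6. TGFbeta stands in the labels of both groups, so a difference between the backgrounds and a difference in their response to TGF-β1 cannot be told apart. The labels name no knocked-out gene behind WT and KO, and these words follow the same split as the background, so the 2 cannot be told apart. The labels describe littermate cohorts of matched age and sex. The ages and sexes, and how or in which cells TGF-β1 was raised, were not given in the sources used here. The labels do not say that each array is a separate animal, so p-values measure only the spread between these arrays, which may be technical. The comparison asks how kidneys of the backgrounds, which the series title sets apart by their sensitivity to fibrosis, differ in RNA of the filtration barrier.

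Podocytes wrap the capillaries with interlocking foot processes, and the gaps between them are bridged by the slit diaphragm, a cell junction that helps to keep plasma proteins out of the urine. Nephrin (Nphs1) and Neph1 (Kirrel) span the gap, and their inner tails bind adaptors such as CD2AP and MAGI2 that tie the junction to actin. Podocalyxin (Podxl) and the phosphatase PTPRO, also called GLEPP1, lie on the apical surface of the foot processes. Synaptopodin (Synpo) binds actin inside them, and WT1 is the transcription factor that maintains the podocyte programme. In podocyte injury the foot processes flatten and the slit diaphragm is lost.

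For 5 of the 8 genes the RefSeq table of promoters (GRCm38.p6) held the bases before an annotated start. The 250 bases before the start are shown for Nphs1 and Ptpro, which both fell in the comparison given further on, and for Cd2ap, which did not. The Nphs1 stretch is chr7:30459808-30460057 on the plus strand, the Ptpro stretch is chr6:137252049-137252298 on the plus strand, and the Cd2ap stretch is chr17:42876425-42876674 on the minus strand. Capitals mark matches, on either strand, to the E-box CANNTG of basic helix-loop-helix factors, to GCGNGGGNG, a pattern shared by WT1 and the EGR factors, and to the forkhead pattern TGTTTNC.
Nphs1: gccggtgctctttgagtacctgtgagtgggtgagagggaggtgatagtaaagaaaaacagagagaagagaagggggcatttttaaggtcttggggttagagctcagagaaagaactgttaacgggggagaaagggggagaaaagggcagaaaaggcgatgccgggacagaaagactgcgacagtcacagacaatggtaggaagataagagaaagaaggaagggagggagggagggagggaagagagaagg
Ptpro: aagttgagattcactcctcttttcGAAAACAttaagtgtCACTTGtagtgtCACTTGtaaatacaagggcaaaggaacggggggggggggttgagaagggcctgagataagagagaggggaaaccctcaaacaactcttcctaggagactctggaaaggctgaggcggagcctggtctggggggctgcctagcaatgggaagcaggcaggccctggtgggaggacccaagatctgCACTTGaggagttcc
Cd2ap: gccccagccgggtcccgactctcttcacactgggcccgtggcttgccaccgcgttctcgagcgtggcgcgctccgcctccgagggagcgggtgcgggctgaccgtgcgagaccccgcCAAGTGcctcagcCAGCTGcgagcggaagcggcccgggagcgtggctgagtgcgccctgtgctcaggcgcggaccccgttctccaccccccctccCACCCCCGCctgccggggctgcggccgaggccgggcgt
The Nphs1 stretch held no match to these 3 patterns. Of its bases 77.2% were A or G, a share at the 99.9th percentile of all promoters of the table. The Kirrel stretch, not shown, also held no match and had 76.8% A or G, and Kirrel did not pass in the comparison. The Ptpro stretch held 3 E-boxes, each reading CACTTG, and 1 forkhead match. The Cd2ap stretch held 2 E-boxes and 1 match to the WT1 and EGR pattern, and 1 of its E-boxes, CAAGTG, is CACTTG read from the other strand. Of 32851 promoters of the same length, 66.2% held an E-box, 10.5% the WT1 and EGR pattern and 17.8% the forkhead pattern. A match is a run of letters and not a measured binding site, and none of the 3 patterns was found in both Nphs1 and Ptpro.

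All values are log2 intensities, and all differences are CBAxB6-TGFbeta minus B6-TGFbeta on the log2 scale, from limma over all genes with Benjamini-Hochberg adjustment and a threshold of 0.05. The rows of each gene were combined into 1 value per array by Tukey's median polish. Median intensities of the arrays ran from 7.27 to 7.34. The tubular gene Umod read 12.18 to 12.27 in B6-TGFbeta and 11.96 to 12.12 in CBAxB6-TGFbeta. In the same order the tubular gene Slc34a1 read 12.06 to 12.29 and 10.03 to 10.48. The collecting duct gene Aqp2 read 8.31 to 8.69 and 7.73 to 8.25. B6-TGFbeta replicate 2 stood apart by RNA of neighbouring tissues. Its mean over 6 fat markers was 8.29 against 5.41 to 6.40 in the other 5 arrays. Its mean over 6 adrenal and chromaffin markers was 9.06. B6-TGFbeta replicate 1 followed on that list at 6.76, and the remaining arrays read 5.69 to 5.79. Values of the slit diaphragm and foot process genes are therefore also given without replicate 2. Replicate 1 stays in those fits. Unless stated otherwise, fits with an array left out used a gene summary recomputed from the remaining arrays. Fits that instead kept the summary of all 6 arrays were a choice made after seeing the data.

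Podxl, Ptpro and Nphs1 fell in CBAxB6-TGFbeta kidneys, while Kirrel, Synpo and Wt1 did not pass the test and Cd2ap lay higher in all 3 arrays without passing. Thus 3 of 7 genes passed as lower, where 4.57% of all genes did, and none passed as higher, where 3.08% of all genes did. By limma 4 of the 7 had an unadjusted p under 0.05, the 3 that fell and Cd2ap, where 21.5% of all genes did. Without B6-TGFbeta replicate 2, and with the gene summary recomputed, none of the 7 passed, and 77 of all genes did. With the summary of all 6 arrays kept, 1 of the 7 passed as lower, and 979 of all genes passed. The median difference of the 7 genes was -0.13, against 0.02 over all genes. The groups did not overlap in 3 genes that were lower, where this held for 13.4% of all genes, and in 1 gene that was higher, where it held for 13.5% (26.8% of all genes in either direction). In bulk kidney RNA, fewer podocytes and less RNA per podocyte cannot be told apart.

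Nphs1 encodes nephrin, the defining protein of the slit diaphragm. It read 7.20, 7.33 and 7.30 in B6-TGFbeta replicates 1, 2 and 3, and 6.79, 6.77 and 6.93 in CBAxB6-TGFbeta replicates 4, 5 and 6. The highest CBAxB6-TGFbeta array stayed below the lowest B6-TGFbeta array. The means were 7.28 ± 0.07 and 6.83 ± 0.09 (SD, n = 3 each), a difference of -0.44 (SE 0.10, 95% interval -0.66 to -0.23) or 0.735-fold, with an adjusted p of 0.0264. When the summary was recomputed without B6-TGFbeta replicate 2 the difference was -0.22, with an adjusted p of 0.348. With the summary of all 6 arrays kept and replicate 2 left out, it was -0.42 (adjusted p 0.0904). With each of the 6 arrays left out in turn and the summary recomputed, Nphs1 kept its direction, at -0.45 to -0.22, and never passed. With the summary kept it lay at -0.50 to -0.41 and passed in 1 of 6 fits.

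Kirrel encodes Neph1, which pairs with nephrin across the slit. Its values were 7.71, 7.52 and 7.55 in B6-TGFbeta and 8.11, 7.71 and 7.57 in CBAxB6-TGFbeta. Replicate 4 was high, and replicates 5 and 6 lay within or next to the B6-TGFbeta range. The difference of 0.21 (SE 0.14, adjusted p 0.466) had a 95% interval from -0.12 to 0.53. It was 0.04 without CBAxB6-TGFbeta replicate 4, 0.39 without replicate 6 and 0.20 without B6-TGFbeta replicate 2.

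Cd2ap encodes the adaptor that links nephrin to actin and to cell survival signals, and it is also made by other kidney cells. The B6-TGFbeta arrays read 11.48, 11.52 and 11.25, and the CBAxB6-TGFbeta arrays read 11.65, 11.72 and 12.05. The lowest CBAxB6-TGFbeta value, in replicate 4, exceeded the highest B6-TGFbeta value, in replicate 2. The difference was 0.39 (SE 0.13, 95% interval 0.09 to 0.68), or 1.31-fold, and did not pass after adjustment over all genes (p 0.0158, adjusted p 0.119). It was 0.42 without B6-TGFbeta replicate 2 and 0.26 without CBAxB6-TGFbeta replicate 6.

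Podxl encodes podocalyxin, the negatively charged sialoprotein that keeps foot processes apart, and endothelial and mesothelial cells make it too. Its B6-TGFbeta values of 10.51, 10.48 and 10.57 were close together. The CBAxB6-TGFbeta values of 10.13, 9.84 and 9.66 spread more widely and were all lower. From 10.52 ± 0.05 to 9.88 ± 0.23 (SD, n = 3 each), the difference was -0.64 (SE 0.13, 95% interval -0.93 to -0.36), or 0.641-fold, with an adjusted p of 0.0166. With an array left out and the summary recomputed it stayed at -0.76 to -0.52 and passed in 1 of 6 fits, without CBAxB6-TGFbeta replicate 4. Without B6-TGFbeta replicate 2 it was -0.63 with an adjusted p of 0.162, and with the summary kept -0.66 with an adjusted p of 0.0428.

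Beside Podxl, 9 of 10 endothelial markers were below 0, 4 of them passing, with a median of -0.35. The list is not confined to glomerular capillaries. Plat, named after its value was seen, was above 0, at 0.50, and did not pass (adjusted p 0.121). The mean level of the 10 markers per array was 9.19 to 9.28 in B6-TGFbeta and 8.91 to 9.02 in CBAxB6-TGFbeta. The defining endothelial genes Ehd3, Emcn and Kdr had differences of -0.26, -0.32 and -0.57, and Kdr passed. Of 6 mesothelial markers none passed by limma, and 1 had an unadjusted p under 0.05, Gpm6a at -0.42, a gene named after its value was seen. The part of endothelial RNA in the Podxl result was not tested.

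Ptpro encodes a receptor-type tyrosine phosphatase of the apical foot process membrane. Its B6-TGFbeta values of 8.41, 8.45 and 8.46 were nearly equal. CBAxB6-TGFbeta read 8.14, 7.75 and 8.002, all lower, with replicate 5 lowest. The means of 8.44 ± 0.03 and 7.96 ± 0.20 (SD, n = 3 each) differed by -0.48 (SE 0.12, 95% interval -0.74 to -0.22), or 0.718-fold, with an adjusted p of 0.0378. Leaving out arrays and recomputing the summary gave -0.50 to -0.30, and it passed in none of the 6 fits. The lowest size, -0.30, came without CBAxB6-TGFbeta replicate 5 (adjusted p 0.210), and without B6-TGFbeta replicate 2 it was -0.38 (adjusted p 0.272). With the summary kept these values were -0.37 and -0.47 (adjusted p 0.108 and 0.101). Some leukocytes can make a shorter form of PTPRO. In these arrays 6 of 7 macrophage and leukocyte markers rose, with a median of 1.33, the opposite direction to Ptpro, and their part in its value was not tested.

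Synpo encodes synaptopodin, the actin-binding protein of the foot process, and rested on 4 rows, the fewest of the 7 genes. Its values of 7.53, 7.64 and 7.97 in B6-TGFbeta overlapped with 8.07, 7.86 and 7.69 in CBAxB6-TGFbeta. The difference of 0.16 (SE 0.14, adjusted p 0.595) had a 95% interval from -0.17 to 0.48. With an array left out it lay between 0.02, without CBAxB6-TGFbeta replicate 4, and 0.28, without B6-TGFbeta replicate 3, and it was 0.11 without B6-TGFbeta replicate 2.

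Wt1, the nuclear factor used to count podocytes in tissue sections, read 8.05, 7.96 and 8.25 in B6-TGFbeta and 8.07, 8.04 and 7.75 in CBAxB6-TGFbeta. The groups overlapped, and replicate 6 was lowest. The difference was -0.13 (SE 0.12, adjusted p 0.611), with a 95% interval from -0.41 to 0.15, so a decrease as large as 0.41 or an increase of 0.15 lies within the precision of these arrays. It was -0.21 without B6-TGFbeta replicate 2 and -0.04 without CBAxB6-TGFbeta replicate 6.

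**Figure D1:**
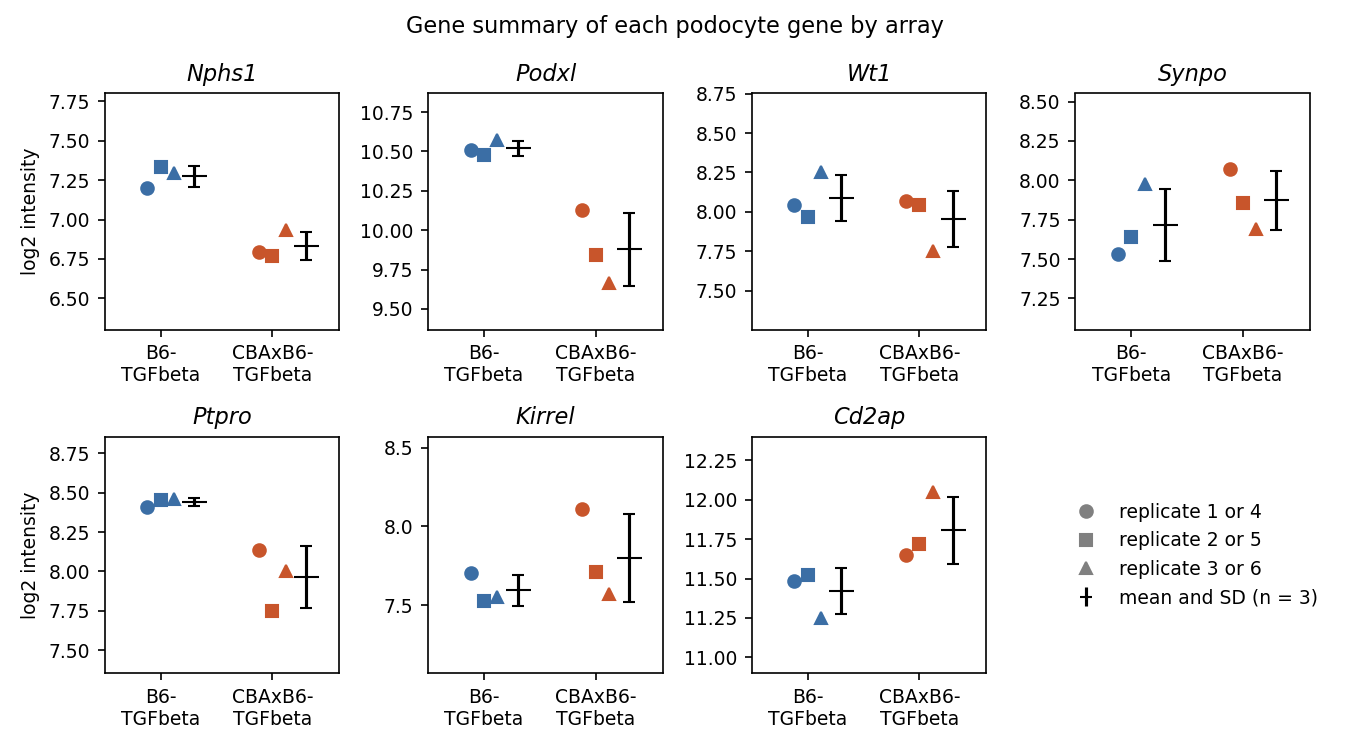
The log2 intensity of the gene summary (vertical axis, a span of the same height in every panel) is plotted for 7 podocyte genes by group, with 1 marker per array and the mean with its SD (n = 3) beside the markers. The groups are apart for Nphs1, Podxl and Ptpro, which are lower in CBAxB6-TGFbeta, and for Cd2ap, which is higher and did not pass, while the markers of Wt1, Synpo and Kirrel overlap.

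Because Wt1 marks podocytes, the other genes were also set against it within each array. This removes a shift only as far as a gene shares it with Wt1. Cd2ap and Podxl are also made by other cells, so their ratios can hold differences of those cells. Podxl minus Wt1 was 2.47, 2.51 and 2.32 in B6-TGFbeta and 2.05, 1.80 and 1.91 in CBAxB6-TGFbeta, a change of -0.51 with no overlap. Cd2ap, Kirrel and Synpo minus Wt1 were higher by 0.52, 0.34 and 0.29, again with no overlap, though by a narrow margin in Cd2ap and Kirrel. For these 4 genes the two-sided exact permutation p was 0.1, the smallest that 3 against 3 arrays allow, and 0.15 after Benjamini-Hochberg adjustment over the 6 ratios. Nphs1 minus Wt1 changed by -0.31 and Ptpro minus Wt1 by -0.35, with overlap between the groups (exact p 0.3 and 0.2). No ratio could pass a threshold of 0.05 with this number of arrays. The Wt1 difference of -0.13 and the spread of Wt1 between arrays enter every ratio. Kirrel and Synpo overlapped between the groups before Wt1 was subtracted. How many of all genes lie apart when set against Wt1 was not computed. For values not set against Wt1 it was 26.8% of all genes, so the lack of overlap is not read as particular to these genes.

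The rows of a gene probe different exons and show whether a gene moved as a whole. Of the 10 Podxl rows all were below 0, from -0.94 to -0.18, and in 7 of them the groups did not overlap. All 11 Cd2ap rows were above 0, from 0.19 to 0.73, and 6 did not overlap. Ptpro had 23 of 30 rows below 0 and Nphs1 24 of 32, while Wt1 had 9 of 11 below 0 but no row without overlap.

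Over the 116 rows, 35 (30.2%) were lower with no overlap, where 10.5% of all rows on the array were, and 12 (10.3%) were higher with no overlap, where 9.91% of all rows were. Ptpro gave 16 of the 35, Nphs1 11, Podxl 7 and Kirrel 1. Rows of a gene come from the same arrays and are not replicates. Tested row by row over the whole array, 1 of the 116 rows passed as lower, where 0.299% of all rows did, and none as higher, where 0.236% did. That row, probe set 10551930 of Nphs1, read 7.39, 7.92 and 7.38 in B6-TGFbeta and 5.69, 5.94 and 5.39 in CBAxB6-TGFbeta, a difference of -1.89 with an adjusted p of 0.0349.

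Rows of Nphs1 and Ptpro differed widely among themselves. Nphs1 rows ran from -2.19 to 0.90, and its most raised row, probe set 10551911, read 6.36, 6.43 and 6.44 in B6-TGFbeta and 7.44, 7.001 and 7.50 in CBAxB6-TGFbeta. Ptpro rows ran from -2.05 to 0.91, with probe set 10542434 at 7.25, 7.10 and 7.12 against 8.39, 7.65 and 8.16. These 2 rows were higher with no overlap inside genes that were lower as a whole, and neither passed over all rows. In a single row, a difference in RNA cannot be told apart from a difference between the CBA and B6 genomes in the bases the probes bind. In a separate fit each gene was represented by its brightest row alone, with adjustment over genes. There Nphs1 gave -0.67 and passed (adjusted p 0.0443), while Podxl and Ptpro gave -0.64 and -0.53 and did not (adjusted p 0.0939 and 0.254). In the fit of all rows that Nphs1 row, probe set 10551933, did not pass (adjusted p 0.153). The 4 rows of Synpo disagreed, at -0.34, -0.10, 0.39 and 0.62, and the 18 rows of Kirrel lay from -0.57 to 0.93 with 14 above 0.

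**Figure D2:**
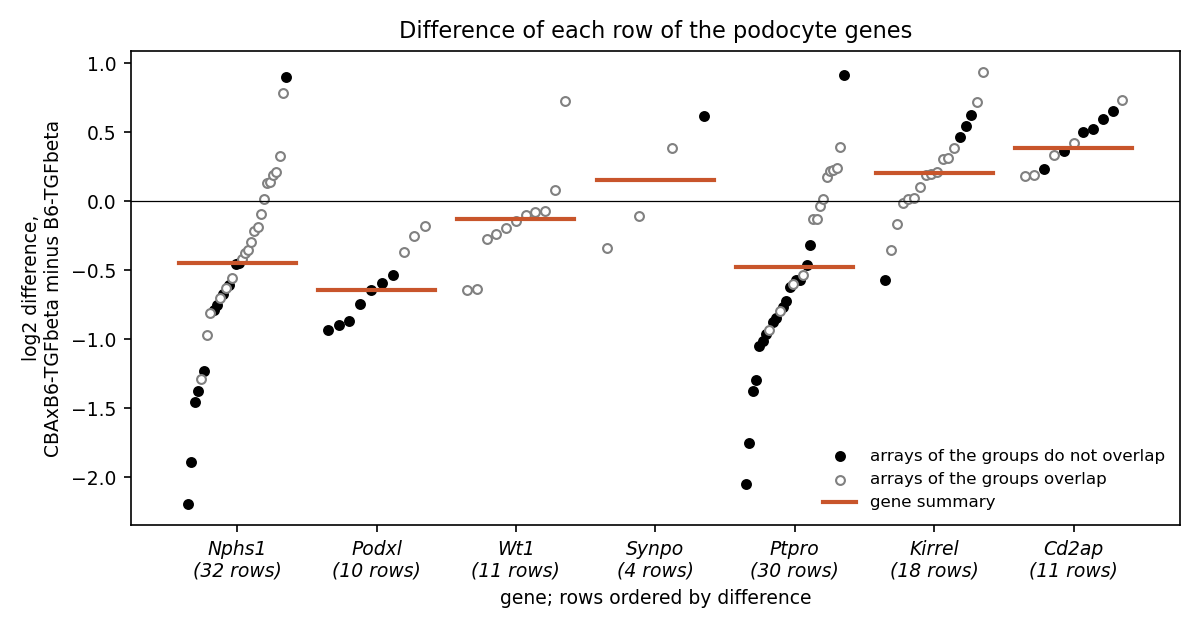
Each point is the log2 difference, CBAxB6-TGFbeta minus B6-TGFbeta, of 1 row of a podocyte gene, ordered within the gene along the horizontal axis, filled where the arrays of the groups do not overlap, with a line at the gene summary. All 10 Podxl rows lie below 0 and all 11 Cd2ap rows above it, while Nphs1 and Ptpro rows span from -2.19 to 0.90 and from -2.05 to 0.91.

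The arrays of a group also differed among themselves. The median deviation of the 7 genes from their group means lay between -0.04 and 0.02 in the B6-TGFbeta arrays. It was 0.17 in CBAxB6-TGFbeta replicate 4, -0.06 in replicate 5 and -0.18 in replicate 6. In replicate 4, 5 of the 7 genes were above the group mean, in replicate 5 only 1 was, and in replicate 6 3 were. Nphs1 and Cd2ap went the other way, at -0.04 and -0.15 in replicate 4 and 0.10 and 0.24 in replicate 6. Some other lists shared the order of these arrays, with median deviations in replicates 4 and 6 of 0.21 and -0.17 for mesangial markers and 0.28 and -0.28 for tubular injury markers. Proximal tubule markers had the opposite order, at -0.32 and 0.08. So did thick limb and distal tubule markers, at -0.25 and 0.16, and the podocyte nuclear genes, at -0.07 and 0.06. Replicate 4 also had the highest tubular injury level of all arrays (9.99) and the lowest proximal tubule level (9.35), while its Podxl and Ptpro were the highest of its group.

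Across the 6 arrays, and among all genes of the lists used here, those most like Nphs1 by Pearson's r were the growth factor gene Vegfa (0.96), Egf (0.96), Miox (0.96) and the endothelial cadherin gene Cdh5 (0.95). Egf and Miox are known as tubular genes. Among the slit diaphragm and foot process genes, r with Nphs1 was 0.90 for Ptpro, 0.82 for Podxl and 0.27 for Wt1, and -0.44, -0.65 and -0.66 for Synpo, Kirrel and Cd2ap. Both groups enter these values, so 2 genes that differ between the groups in the same direction tend to resemble each other. Genes that differ in opposite directions tend to have r below 0. All values of r are descriptions of 6 arrays.

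A wider view comes from 72 other podocyte genes, of which 69 were measured. Among the 69, 8 fell, 2 rose and 59 missed the threshold. Their median was -0.04. Thus 11.6% fell, where 4.57% of all genes did, and 2.90% rose, where 3.08% of all genes did. Without B6-TGFbeta replicate 2 none of the 69 passed with the summary recomputed, and 2 fell and 1 rose with the summary of all arrays kept. Many of these genes are also made by other kidney cells.

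Of 14 measured partners of the slit diaphragm none passed in limma, 3 having an unadjusted p under 0.05, a share close to the 21.5% of all genes, and the median was 0.09. The scaffold Iqgap1 stood at 0.42 (SE 0.12, adjusted p 0.0636) and the atypical protein kinase C gene Prkci, part of the polarity complex, at 0.32 (SE 0.12, adjusted p 0.156). The Kirrel relatives Kirrel2 and Kirrel3 stood at 0.15 and 0.09, and the tight junction scaffold Tjp1 at 0.09, none passing. These 3 were named after their values were seen.

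Of 17 genes of the actin cytoskeleton and foot process, 1 fell and 2 rose. Arhgap24, which restrains Rac1 in podocytes, fell by 0.54 on the log2 scale (SE 0.11, adjusted p 0.0206). Myh9, the heavy chain of non-muscle myosin IIA, rose by 0.78 (SE 0.18, adjusted p 0.0297), and Anln, an actin-binding protein also used in cell division, rose by 0.60 (SE 0.13, adjusted p 0.0262). Without CBAxB6-TGFbeta replicate 4 Myh9 stood at 0.51 with the summary recomputed (adjusted p 0.192) and at 0.60 with it kept (adjusted p 0.0518). The foot process genes Clic5 and Slc9a3r2, the latter an ezrin-binding partner of podocalyxin, had values of -0.53 and -0.49 and did not pass (adjusted p 0.0534 and 0.0664). Actn4 had -0.16 and Nes 0.50, neither passing. Clic5, Slc9a3r2, Actn4 and Nes lie outside the rule for named genes and were chosen after their values were seen.

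Of 15 genes of adhesion and the glomerular basement membrane, 2 fell and the remaining 13 missed the threshold. The median was -0.12. The 2 were Col4a3 (-0.47, SE 0.10, adjusted p 0.0258) and Col4a4 (-0.40, SE 0.10, adjusted p 0.0385), chains of the collagen IV network that podocytes lay down. With the summary recomputed without B6-TGFbeta replicate 3 they stood at -0.29 and -0.20 (adjusted p 0.131 and 0.335). Col4a4 stood at -0.25 without B6-TGFbeta replicate 1 (adjusted p 0.340). With the summary of all 6 arrays kept they stood at -0.39 and -0.35 without replicate 3 (adjusted p 0.0859 and 0.126). Col4a4 then stood at -0.40 without replicate 1 (adjusted p 0.132). Their partner Col4a5 had -0.22 with no overlap between the groups and missed the threshold (adjusted p 0.244). The laminin genes Lamb2 and Lama5 stood at -0.11 and -0.12, and the integrin gene Itga3, which anchors the foot process, at 0.01. These 4 genes were also named after their values were seen.

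Of 8 measured nuclear genes 2 fell. Tcf21, a basic helix-loop-helix factor also made by stromal cells, fell by 0.84 (SE 0.22, adjusted p 0.0486) and rested on 2 rows. Without CBAxB6-TGFbeta replicate 6 it stood at -0.55 (adjusted p 0.0763). Dach1 fell by 0.47 (SE 0.10, adjusted p 0.0281). The podocyte factor Lmx1b, named after its value was seen, had -0.07 (adjusted p 0.809). Of 15 signalling and secreted genes 3 fell. They were Vegfa, the factor by which podocytes sustain the glomerular endothelium (-0.61, SE 0.10, adjusted p 0.00674), Bmp7 (-0.56, SE 0.11, adjusted p 0.0151) and Rab3b (-0.59, SE 0.14, adjusted p 0.0372). Without CBAxB6-TGFbeta replicate 5, and with the summary recomputed, Rab3b stood at -0.30 (adjusted p 0.346). With the summary kept, Rab3b lay at -0.74 to -0.45 over the 6 fits. Among the 10 other podocyte genes that passed, with an array left out and the summary recomputed, Myh9 and Vegfa passed in 1 of 6 fits each and the other 8 in none. With the summary of all 6 arrays kept, Vegfa passed in 6 of 6 fits, Bmp7 in 4 and Arhgap24 in 3. Anln, Dach1 and Tcf21 then passed in 2, Myh9, Col4a3 and Rab3b in 1, and Col4a4 in 0. Vegfa and Bmp7 are also made by tubules, where 7 of 7 proximal tubule markers fell, with a median of -1.86. Of the thick limb and distal tubule markers 5 of 6 fell, with a median of -0.95. Of the collecting duct markers 3 of 6 fell, with a median of -0.50. The part of tubular RNA in the Vegfa and Bmp7 values was not tested.

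**Figure D3:**
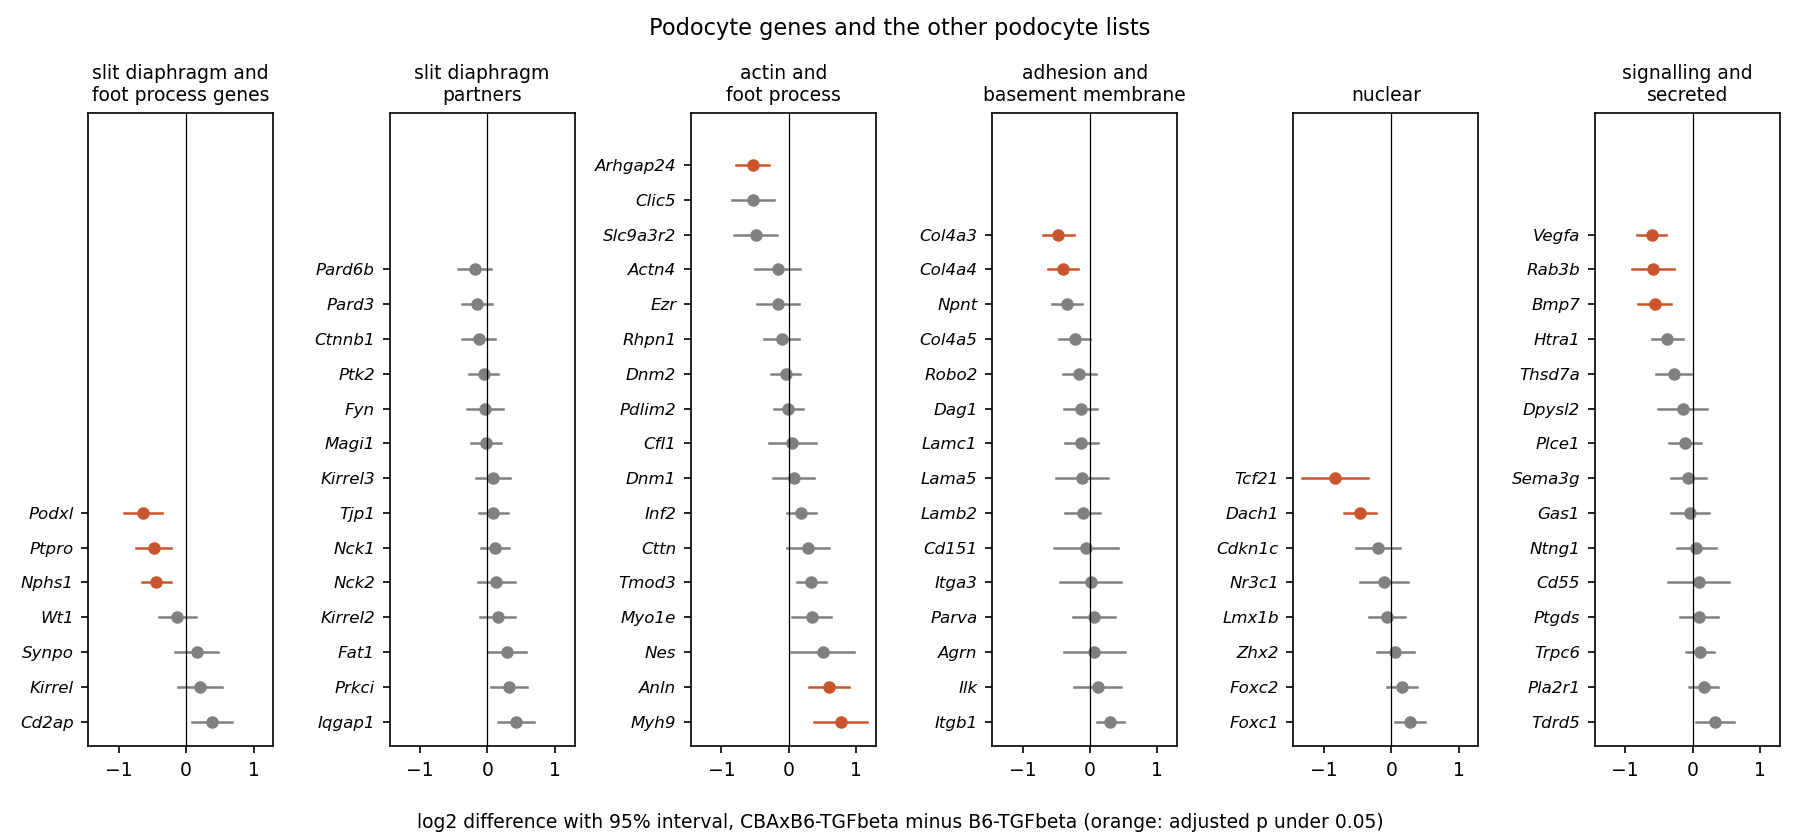
Points are log2 differences, CBAxB6-TGFbeta minus B6-TGFbeta, with 95% intervals, for the 7 slit diaphragm and foot process genes and 69 other podocyte genes in 5 groups, coloured where adjusted p is under 0.05. Of the 14 slit diaphragm partners none is coloured, and the 2 coloured points above 0 are Anln and Myh9.

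Other cell types of the kidney differed between the groups beside the podocyte genes. Proximal tubule markers averaged 11.10 to 11.30 in B6-TGFbeta and 9.35 to 9.84 in CBAxB6-TGFbeta. Thick limb and distal tubule markers averaged 10.62 to 10.79 and 9.21 to 9.75 in the same order, 5 of 6 falling. Collecting duct markers averaged 8.84 to 8.99 and 8.19 to 8.41, 3 of 6 falling. Macrophage and leukocyte markers averaged 7.38 to 7.66 and 8.48 to 8.95, and tubular injury markers 8.04 to 8.21 and 9.46 to 9.99, 5 of 6 rising. Of 7 parietal epithelial markers Cldn1 and Vcam1 rose (1.08 and 1.94, Vcam1 being named after its value was seen), which injured tubules also express, while Pax2 and Pax8 stood at -0.32 and -0.06 and did not pass, and of 6 mesangial markers 2 rose and 1 fell. On the same averages the 7 slit diaphragm and foot process genes ran from 8.70 to 8.76 and from 8.52 to 8.71, so their groups overlapped. Whether these shifts in other cells moved the podocyte values was not tested.

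**Figure D4:**
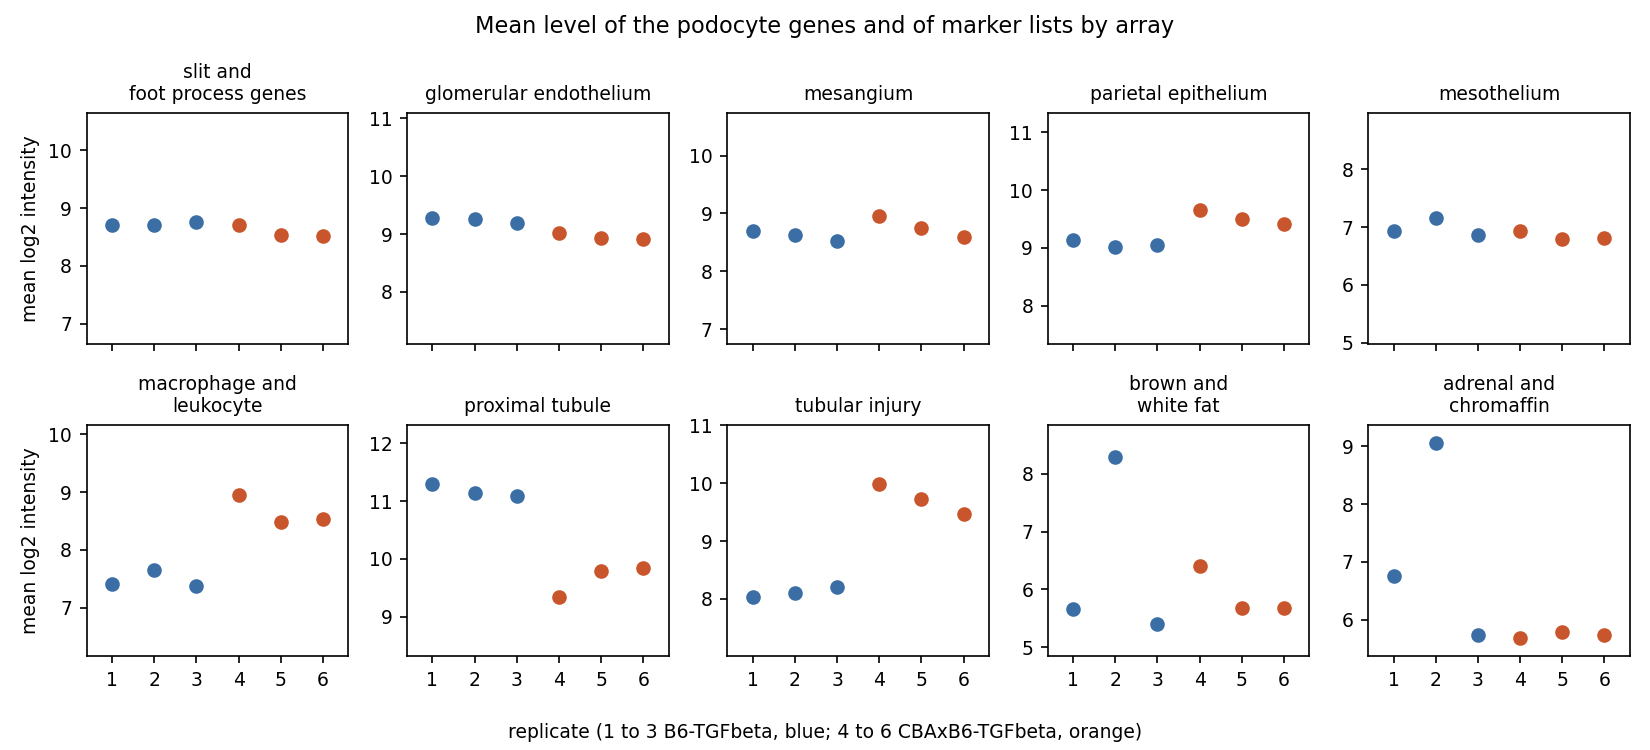
The mean log2 intensity of the 7 podocyte genes and of 9 marker lists is plotted for each array, each panel spanning the same height, with replicates 1 to 3 from B6-TGFbeta and 4 to 6 from CBAxB6-TGFbeta. Proximal tubule, macrophage and tubular injury lists separate the groups widely, and the podocyte genes overlap. B6-TGFbeta replicate 2 stands apart in the fat and adrenal lists, and B6-TGFbeta replicate 1 is next in the adrenal list.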

How the data were processed

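The authors deposited 1 table of log2 intensities for 6 arrays, 1 row per exon probe set. Per the submitters' processing notes the tools were RMA and Partek. Their versions and settings and the annotation's genome build were not given in the sources used here. Of 241576 rows, 212097 carried 1 symbol and were combined into 20416 genes by median polish. The 4475 rows with several symbols and the 25004 without a symbol entered only the fit of single rows. Older annotation symbols were matched through RefSeq synonyms. Genes and rows were tested with limma (version 3.58.1, R 4.3.3), with 1 group term, moderated variances, two-sided p-values and Benjamini-Hochberg adjustment over the whole table. Calculations were tested on simulated data. The genes and lists were chosen with earlier results of these data known. Named genes are all 8 listed genes, up to 4 passing genes per podocyte list (2 by smallest p where none passed), the first 3 markers of a list where a result turns on it, and the 4 genes most like Nphs1. The alternatives concern normalization, gene summary, dim rows and genes, variance model and arrays left out. Arrays give no depth, and their number limits the precision.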

Additional observations from a re-analysis of the deposited data

How the results depend on the processing

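The count of 3 lower slit diaphragm and foot process genes was the same under median centring, a second quantile normalization, the mean of rows, trended and robust moderation, and removal of the dimmest 25% of genes. It was 1 with the brightest row alone or without the dimmer 50% of rows, and 0 without moderation or with B6-TGFbeta replicate 3 as the only B6-TGFbeta array. In those 4 settings, in the same order, all genes called numbered 617, 1381, 63 and 40 against 1562, and other podocyte genes that fell 1, 8, 0 and 0 against 8. Other podocyte genes that rose, 2 in the main setting, were 5 under trended and robust moderation and 0 in the last 2 settings. Rows of the slit diaphragm and foot process genes that fell, 1 in the main setting, were 2 under trended and robust moderation, where 1 row rose, and 0 in the last 2 settings.

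With each array left out in turn, the counts ran from 57 to 1550 for all genes, 0 to 2 for the slit diaphragm and foot process genes that fell, 0 to 7 and 0 to 2 for other podocyte genes that fell and rose, and 0 to 1 for rows that fell. For genes, these ranges include fits that kept the gene summary of all 6 arrays, a choice made after seeing the data. With the summary kept, all genes called numbered 494, 979 and 711 without B6-TGFbeta replicates 1, 2 and 3, 866 without CBAxB6-TGFbeta replicate 5 and 1335 and 1550 without replicates 4 and 6, and with it recomputed 59, 77, 57, 117, 269 and 554 in the same order. For a given array left out, both fits used the same arrays and differed only in the gene summary. With the summary kept Nphs1, Podxl and Ptpro passed in 1, 3 and 1 of 6 fits, and otherwise in 0, 1 and 0. Of the 7 slit diaphragm and foot process genes and 12 genes named from the podocyte lists, 17 kept their direction under every alternative run. The exceptions, not passing before or after, were Kirrel at -0.0103 on its brightest row and Synpo at -0.14 with B6-TGFbeta replicate 3 alone. Beyond the comparison of kept and recomputed summaries, the cause of the changes under the alternatives was not tested. Of the 13 of these 19 genes that passed, none passed under every alternative. Genes of the marker lists were not run under the alternatives. No paired analysis was run because the labels do not pair arrays of the groups.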
